A study of Mus musculus with 3 samples.

Results

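The 31 genes described here encode secreted cytokines, cytokine subunits and related ligands of immune cells, of 55536 annotated mouse genes. They were chosen by name: interleukins and interleukin subunits, interferon gamma, 2 colony-stimulating factors, leukaemia inhibitory factor, oncostatin M and the fibrinogen-like ligand Fgl2. Each was found under its GENCODE M21 identifier in the gene tables. Polyadenylated RNA had been sequenced from primary cells labelled as activated regulatory T cells, taken from an adult male mouse of 9 weeks of the strain Foxp3GFP-DTRCD4CreERT2R26tdTomato. That name lists a Foxp3 reporter and toxin receptor allele, an inducible Cre allele tied to CD4 and a Cre-dependent tdTomato reporter. The tissue is given only as whole organism, and how the cells were activated, treated or sorted is not given in the sources used here. All 3 libraries are technical replicates of 1 biosample and form 1 group, so levels are described and no condition is compared. Estimated counts per gene totalled 20783676, 21206219 and 18496690 in replicates 1, 2 and 3. Each SD below is over these libraries (n = 3). Since the 3 share 1 biosample, neither the SDs nor the p-values cover variation between animals, and what they measure may be technical.

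Cytokines are small secreted proteins that carry signals between cells by binding surface receptors, many of which act through JAK kinases and STAT factors. Regulatory T cells depend on interleukin-2 from other cells. They are known for suppressive ligands, among them interleukin-10, interleukin-35, Fgl2 and transforming growth factor beta, and for keeping the effector cytokine genes of helper T cells low.

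Among the 31 genes, Il16 made up most of the summed level, a small group followed at moderate levels, and the effector cytokines of helper T cells other than Ifng were low or had no count. Il16 encodes the precursor of a chemoattractant for CD4 cells and was at 429 ± 26.8 TPM, a level scaled to transcript length and to a fixed total per library. Ebi3, Fgl2, Osm, Csf1 and Ifng were between 13.5 and 65.6 TPM on average. Il10, Il18, Lif, Il4, Il2 and Il15 were between 1.31 and 6.24 TPM. A further 12 genes had reads but stayed under 1 TPM in at least 1 library, and 7 had no count in any library. Of the 31 genes, 12 (38.7%) reached 1 TPM in every library, against 47.4% of 21951 protein-coding genes, and 22.6% had no count, against 20.6% of protein-coding genes. Their median level was 0.213 ± 0.116 TPM, against 0.817 ± 0.0513 TPM over protein-coding genes. No test was made of these shares and medians. RNA came from many cells together, so fewer expressing cells and less RNA per cell cannot be told apart.

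**Figure D1:**
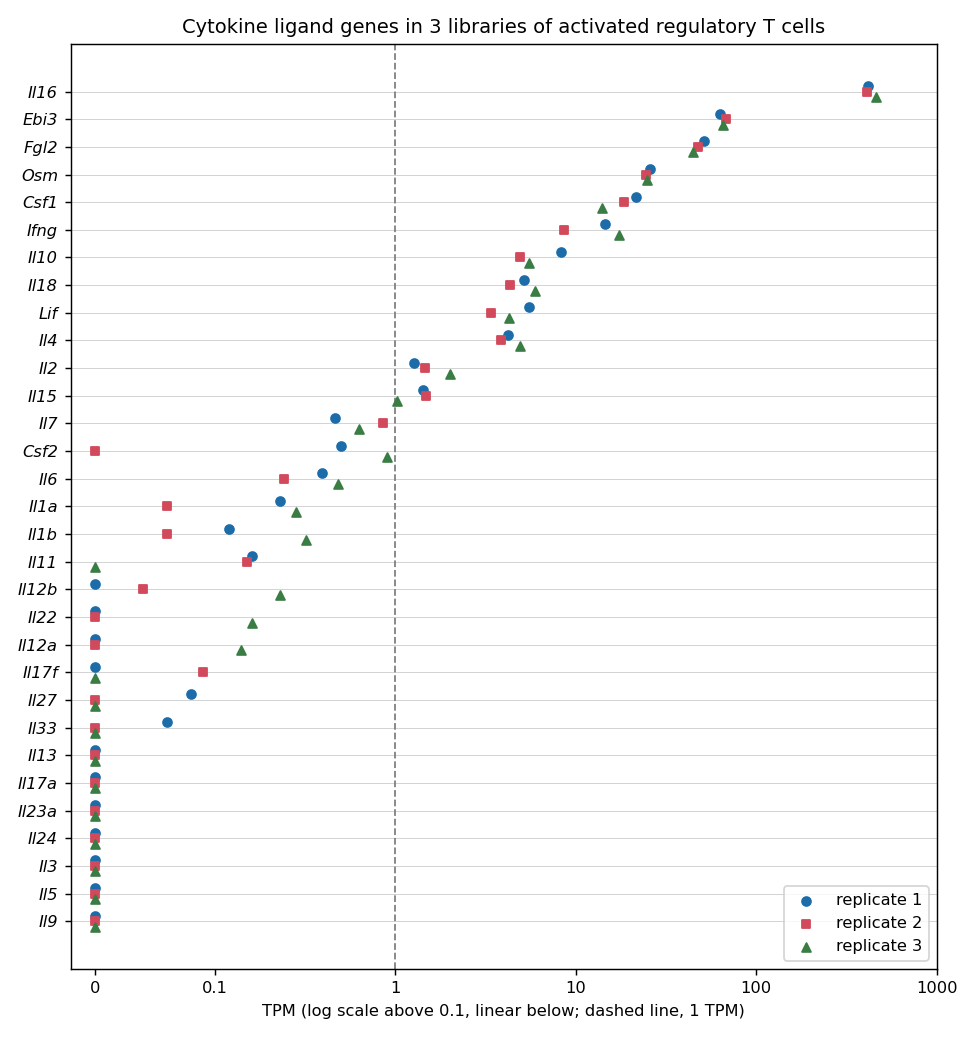
TPM of each of the 31 genes in each library, ordered by mean, on an axis that is logarithmic above 0.1 and linear below; the dashed line marks 1 TPM. Il16 stands at 411 to 460 TPM, 11 other genes lie right of the line in every library, and 7 genes have all 3 libraries at 0.

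Il16 (ENSMUSG00000001741.12) lies on the minus strand of chromosome 7, from 83642825 to 83745726 of mm10. It encodes pro-interleukin-16, a protein with PDZ domains whose carboxyl-terminal part is released by caspase-3 and attracts cells that carry CD4. Its estimated counts were 17247.9, 17827.5 and 17032.5 in replicates 1, 2 and 3, and its levels 416, 411 and 460 TPM. Of protein-coding genes, 98.7% had a lower mean TPM. Its mean was 6.54 times that of the next gene, Ebi3, and it held 67.1, 68.6 and 70.4% of the summed TPM of the 31 genes. That sum was 624 ± 27.4 TPM, or 0.0624% of all TPM.

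Il16 has 6 annotated transcripts, and its reads were assigned almost wholly to 1 short form. Il16-203 held 96.7, 95.7 and 96.6% of the gene's TPM, and its level was 413 ± 27.3 TPM. It has 7 exons, 3183 bases and a coding length of 1872 bases. Il16-201, the long form, with 19 exons, 5260 bases and a coding length of 3966 bases, held 0.822, 0.820 and 0.968%, or 3.75 ± 0.610 TPM. In mouse the long form is known from neurons. The long form still had 235.41, 243.03 and 273.68 estimated counts, so it was not at 0. The retained-intron transcript Il16-204 held 2.80 ± 0.623%, and Il16-202, Il16-205 and Il16-206 were at 0 in every library. Il16-203 starts within intron 12 of Il16-201, 80028 bases downstream of the start of the long form, and 5 exons are identical in both. Reads in shared exons are divided between the forms by the estimation, so the split rests on the exons that differ.

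The bases before both starts are shown because the forms differ by where transcription begins. Each window is the 250 bases upstream of the RefSeq start (GRCm38.p6, the assembly of mm10), minus strand, 5′ to 3′, ending at the base before the start. Capitals mark the motifs found.
Il16-203, chr7:83655496-83655745: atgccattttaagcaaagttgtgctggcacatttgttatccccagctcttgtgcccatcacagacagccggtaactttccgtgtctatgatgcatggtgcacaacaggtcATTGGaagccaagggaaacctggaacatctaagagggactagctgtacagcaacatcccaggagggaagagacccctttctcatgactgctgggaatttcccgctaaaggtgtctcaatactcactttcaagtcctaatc
Il16-201, chr7:83735540-83735789: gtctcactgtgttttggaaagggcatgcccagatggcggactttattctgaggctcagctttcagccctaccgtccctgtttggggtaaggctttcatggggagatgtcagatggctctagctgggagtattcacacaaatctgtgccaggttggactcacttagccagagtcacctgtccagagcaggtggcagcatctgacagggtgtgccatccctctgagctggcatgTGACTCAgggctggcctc
Both strands were searched for the CCAAT box, the ETS core CGGAAG, the AP-1 motif TGANTCA, the CRE motif TGACGTCA, the RUNX core TGTGGT, the Sp1 core GGGCGG and the TATAAA box. The window of the short form held 1 match, CCAAT read on the other strand at -140 to -136, a motif present in 33.8% of 32851 RefSeq windows of this length. The window of the long form held 1 match, TGANTCA at -18 to -12, present in 6.75% of windows. Neither match overlaps another motif searched. The short form's window held 3 CpG and that of the long form 2, against a median of 6 over all windows. GC content was 48 and 55.2% in these windows, against a median of 52.4%. These are letters in a window, and no binding was measured.

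**Figure D2:**
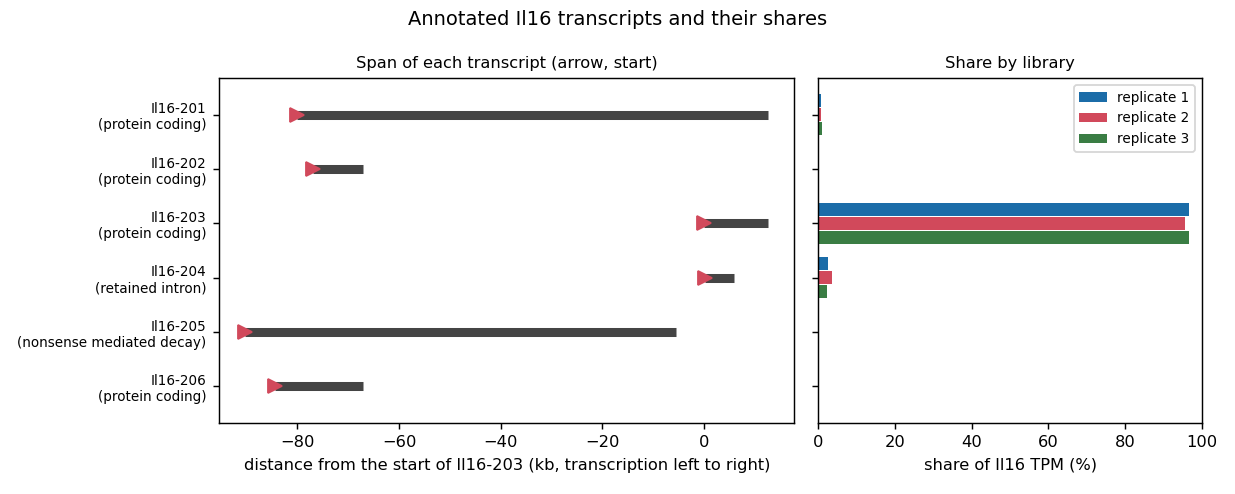
Left, the span of each annotated Il16 transcript as distance in kb from the start of Il16-203, drawn in the direction of transcription with an arrow at each start; right, the share of the gene's TPM in percent that each transcript holds, with 1 bar per library. The bars of Il16-203 lie between 95.7 and 96.7%, and Il16-201, which starts 80028 bases upstream, has under 1% in each library.

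Ebi3 (ENSMUSG00000003206.7, chromosome 17, 55952640 to 55957022) encodes a secreted subunit that pairs with p28, the product of Il27, to form interleukin-27 and with p35, the product of Il12a, to form interleukin-35. It was at 63.3, 67.8 and 65.8 TPM, with 924.5, 1038.36 and 857.45 estimated counts, and 87.8% of protein-coding genes were lower. The 3 libraries lay close together and did not overlap those of Il16 or Fgl2. The genes of its partners were nearly without reads. Il12a had 0, 0 and 2 counts in replicates 1, 2 and 3, and Il27 had 1.06, 0 and 0. Il12b, whose product p40 is a subunit of interleukin-12 and interleukin-23, had 0, 1 and 5 counts, and Il23a, which encodes p19 of interleukin-23, had none. Per length, Ebi3 exceeded Il12a 1411-fold, with a 95% interval of 391 to 11653 from the exact Poisson limits of the 2 counts of Il12a. For Il27, with 1 count, the ratio was 2481 with an interval of 445 to 97988, and for Il12b, with 6 counts, it was 777 with an interval of 357 to 2116. These intervals cover counting error only. The ratios are of RNA and say nothing of how much heterodimer was made.

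Fgl2 (ENSMUSG00000039899.5, chromosome 5, 21372642 to 21378374) encodes a fibrinogen-like protein that is a prothrombinase at the membrane and, once secreted, a suppressive ligand of regulatory T cells. Its levels were 51.4, 47.4 and 44.7 TPM, from 2538, 2456 and 1972 counts. It was highest in replicate 1 and lowest in replicate 3, with a mean of 47.8 ± 3.34 TPM. Il10 (ENSMUSG00000016529.5, chromosome 1, 131019845 to 131024974), which encodes the anti-inflammatory cytokine interleukin-10, was much lower. It had 138, 86 and 82 counts and 8.28, 4.92 and 5.51 TPM, so replicate 1 stood above the other two. Of its family, Il24 had no count and Il22, a cytokine that acts on epithelia, had 0, 0 and 2 counts.

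Osm and Lif, of the interleukin-6 family, signal through the shared receptor chain gp130, and both were detected. Osm (chromosome 11, 4236420 to 4241026) was at 25.7, 24.6 and 24.8 TPM from 732, 748 and 635 counts, with a coefficient of variation of 2.39%, the lowest of the 12 detected genes. Lif (chromosome 11, 4257557 to 4272514), leukaemia inhibitory factor, was at 5.47, 3.40 and 4.25 TPM from 269, 164 and 170 counts, highest in replicate 1. Il6, an inflammatory cytokine of the same family, had 10, 3 and 7 counts and 0.39, 0.24 and 0.48 TPM. Il11 had 4, 2 and 0 counts and 0.16, 0.15 and 0 TPM. Neither reached 1 TPM in any library. Csf1 (ENSMUSG00000014599.10, chromosome 3, 107741048 to 107760469), the growth factor of macrophages, was at 21.5, 18.5 and 14.0 TPM from 838, 796 and 492 counts. Replicate 3 was the low library for Csf1.

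Among the effector cytokines, Ifng (ENSMUSG00000055170.4, chromosome 10, 118441046 to 118445892), the type II interferon of Th1 cells, was the highest. Its levels were 14.5, 8.59 and 17.4 TPM from 221.95, 137.36 and 238.11 estimated counts, and replicate 2 was the low library. Il4, the leading cytokine of Th2 cells, was at 4.23, 3.84 and 4.93 TPM from only 29, 28 and 30 counts. The other genes of this kind were low or without counts. Csf2, which encodes GM-CSF, had 5, 0 and 8 counts and 0.50, 0 and 0.90 TPM, where the 0 allows up to 0.288 TPM. Il17f, of the interleukin-17 family, had 0, 1 and 0 counts. Il3, Il5, Il9, Il13 and Il17a had none.

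The genes without counts are bounded by depth. A count of 0 allows up to 3 counts, which is 0.144, 0.141 and 0.162 CPM (each count divided by its library's total and rescaled) in replicates 1, 2 and 3, or a level in TPM that depends on transcript length. For Il9, a short transcript, this limit was 0.466, 0.445 and 0.522 TPM, the highest of the 7 genes. It was 0.391, 0.373 and 0.438 TPM for Il3, a growth factor of blood cell precursors, and 0.286, 0.273 and 0.321 TPM for Il24. For Il17a, the main cytokine of Th17 cells, it was 0.202, 0.193 and 0.227 TPM, and for Il13, a Th2 cytokine, 0.196, 0.187 and 0.22 TPM. For Il5, the eosinophil growth factor, it was 0.153, 0.146 and 0.171 TPM, and for Il23a 0.152, 0.145 and 0.170 TPM, the lowest of the 7. All these limits lie below the 1 TPM used here to call a gene detected, and they cover counting error only. In the second gene table, Il5 had 1 count in replicate 1 and the other 6 genes had none.

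Of the 5 ligands that use the common gamma chain, Il2, Il4 and Il15 were detected, Il7 was just below and Il9 had no count. Il2, the growth factor on which regulatory T cells depend, was at 1.27, 1.46 and 2.00 TPM from 18.41, 22.11 and 25.79 estimated counts. Il15, a growth factor of NK cells and memory CD8 T cells, was at 1.43, 1.47 and 1.02 TPM from 12, 14 and 10 counts. In replicate 3 it lay just above the detection level. Its few counts were divided among several annotated transcripts, some without a coding sequence. In replicate 2, Il15-210 and Il15-207, both of that kind, held 0.68 and 0.22 TPM. Il7, a survival factor of T cells usually made by stromal cells, was just under the detection level. It was at 0.46, 0.85 and 0.63 TPM from 13, 25 and 15 counts. Il7 had more counts than Il15, but its effective length was 2160, 2131 and 2015 bases, against 636, 687 and 830 for Il15. The call of each gene depends on these lengths. The libraries of Il4 lay above those of Il2, Il15 and Il7, and the libraries of Il2 and Il15 overlapped.

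Of the 4 genes of the interleukin-1 family, Il18, which supports interferon gamma production, was detected at 5.13, 4.32 and 5.92 TPM from 55, 47 and 57 counts. Il1a, an alarm cytokine, had 0.23, 0.06 and 0.28 TPM, and Il1b, the inflammasome product, had 0.12, 0.06 and 0.32 TPM. Both were lowest in replicate 2, from at most 6.47 counts per library. Il33, an alarmin of barrier tissues, had 2, 0 and 0 counts. Of all 12 genes with reads that were not detected, 5 had 3 or fewer counts over the 3 libraries together, and the most, for Il7, was 53. Their highest level in any single library was 0.90 TPM, that of Csf2 in replicate 3.

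By TPM, the order of the detected genes is clearer at the top than lower down. From the highest mean to the lowest, 6 of the 11 steps between neighbours had libraries that did not overlap: Il16 over Ebi3, Ebi3 over Fgl2, Fgl2 over Osm, Osm over Csf1, Ifng over Il10, and Il4 over Il2. The libraries of Csf1 and Ifng overlapped, as did those of Il10 and Il18, of Il18 and Lif, of Lif and Il4, and of Il2 and Il15. Their order within these pairs is not larger than the spread between libraries.

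Several of the 31 genes are neighbours in the genome, and detection differed within 3 of 6 such neighbourhoods. With genes within 1000 kb linked, 15 of the 31 fell into 6 clusters. The Th2 cluster on chromosome 11 holds Il4, Il13, Il5, Csf2 and Il3 in 664 kb, and of these 5 genes Il4 alone was detected. Osm and Lif lie within 36.1 kb on the same chromosome, and both were detected. Ifng was detected and Il22, in the same 241 kb of chromosome 10, was not. Il10 was detected and Il24, in the same 143 kb of chromosome 1, had no count. Neither gene was detected in the pair Il17a and Il17f on chromosome 1 or in the pair Il1a and Il1b on chromosome 2.

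The transcript tables differed in how firmly they placed the reads of each detected gene. Of the 12 genes, 4 have 1 annotated transcript and 8 have more. In 5 of these 8 the same transcript led in every library, and in 3 it held over 90% in every library: Il16-203, Osm-201 with 96.7 ± 1.38% and Ifng-201 with 99.8 ± 0.336%. For Csf1, the leading Csf1-201 (coding length 1656 bases) held 44.9 ± 6.30% and Csf1-202 (coding length 771 bases) held 24.8 ± 5.02%. For Lif the split moved between libraries. Lif-202, with a coding length of 609 bases, held 56.5, 0 and 39.3% in replicates 1, 2 and 3, and Lif-201, with a coding length of 474 bases, held 38.8, 92.3 and 47.8%. For Il4 the mean shares of Il4-203, Il4-201 and Il4-204 were 30.1, 29.9 and 26.5%, from at most 30 counts of the gene per library. Il4-203 and Il4-204 have coding lengths of 135 bases each and Il4-201 of 420 bases. Il4-201 was at 0.97, 1.40 and 1.48 TPM in replicates 1, 2 and 3, a part of the gene's level. The gene-level TPM of Lif depends on its split, and that of Il15 on the split of its few counts, since transcript length enters both.

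The only comparison the labels allow is between libraries, and its question is whether a gene's counts vary more than counting noise would give. On the CPM scale, Csf1 was at 40.3, 37.5 and 26.6, Ifng at 10.7, 6.48 and 12.9, Lif at 12.9, 7.73 and 9.19, and Il10 at 6.64, 4.06 and 4.43 in replicates 1, 2 and 3. The highest library exceeded the lowest 1.52-fold for Csf1, 1.99-fold for Ifng, 1.67-fold for Lif and 1.64-fold for Il10. The low library was replicate 3 for Csf1 and replicate 2 for Ifng, Lif and Il10. Il16, at 830, 841 and 921 CPM, and Fgl2, at 122, 116 and 107 CPM, differed by less, 1.11-fold and 1.15-fold, but from many more counts. A chi-square test of homogeneity on rounded estimated counts, adjusted by Benjamini-Hochberg over all 14641 genes with 30 or more summed counts, gave an adjusted p of 2.91e-23 for Il16, 3.84e-12 for Csf1, 4.01e-09 for Ifng, 1.89e-06 for Lif, 0.000164 for Fgl2 and 0.00133 for Il10. Of the 13 cytokine genes tested 6 passed (46.2%), against 44.9% of all genes tested, so the share is near that of genes in general. That background rises with depth. It was 18.4% of genes with a summed count of 30 to 100, 35.8% of those with 100 to 1000, 54.4% of those with 1000 to 10000 and 84.9% of those with 10000 or more.

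The other 7 did not pass: the adjusted p was 0.172 for Ebi3, 0.896 for Osm, 0.346 for Il18, 0.785 for Il4, 0.362 for Il2, 0.913 for Il15 and 0.235 for Il7. For Il4, Il2, Il15 and Il7, with at most 30 counts per library, the counting intervals were wider than the differences between libraries. The 18 genes with under 30 summed counts were not tested with this filter. Each of the 6 calls was lost when 1 library was left out. Without replicate 1, the adjusted p was 0.717 for Il10 and 0.236 for Lif. Without replicate 2 it was 0.127 for Ifng, and without replicate 3 it was 0.273 for Csf1, 0.139 for Fgl2 and 0.373 for Il16. In the second gene table Lif (adjusted p = 0.0933) and Fgl2 (0.635) did not pass, while the other 4 did, at 7.21e-05 for Csf1, 0.00308 for Il16, 0.00319 for Ifng and 0.0449 for Il10. By CPM, no replicate was uniformly high or low: of the 12 detected genes, 4 were highest in replicate 1, 3 in replicate 2 and 5 in replicate 3.

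**Figure D3:**
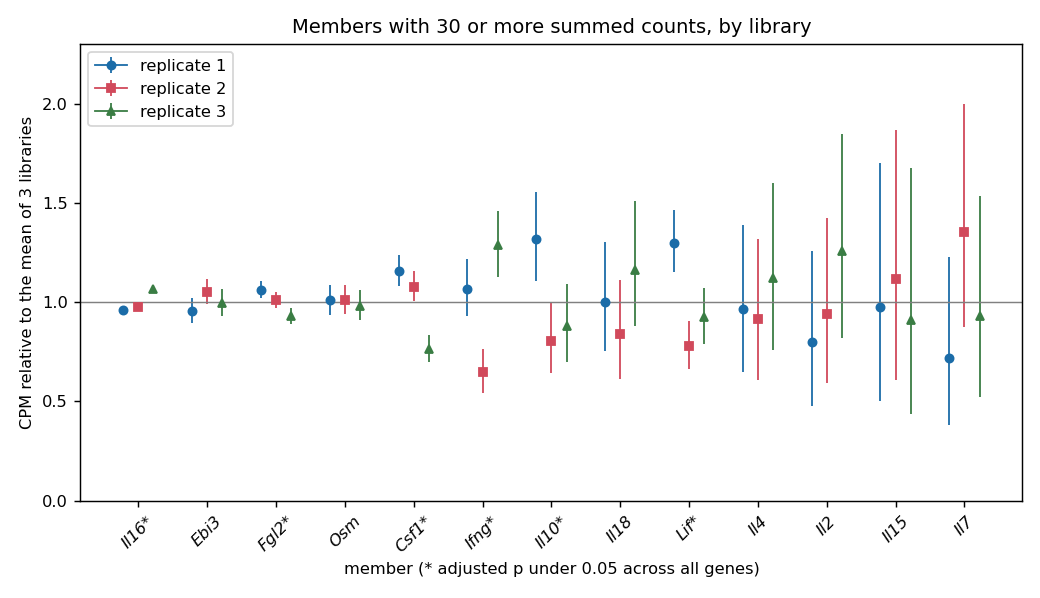
CPM of the 13 genes tested, divided by each gene's mean over the 3 libraries, with exact 95% Poisson counting intervals; a star marks an adjusted p under 0.05 over all genes tested. Csf1 is low in replicate 3, Ifng is low in replicate 2, and Il10 and Lif are high in replicate 1, while the intervals of the 3 libraries overlap for Il4, Il2, Il15 and Il7.

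Markers of other cells were checked because several of these ligands are also made by other immune cells. All 8 regulatory T cell markers listed were detected, with summed levels of 6841, 6310 and 6767 TPM in replicates 1, 2 and 3. Of 13 myeloid and dendritic markers 4 were detected, led by Lyz2 at 15.0 ± 2.04 TPM, and S100a8 had no count. Their summed level was 32.66, 23.96 and 36.36 TPM in replicates 1, 2 and 3. This sum and that of the regulatory T cell markers were lowest in replicate 2. The regulatory T cell sum was mostly Trac (3266, 2899 and 3376 TPM) and Cd3e (1348, 1281 and 1354 TPM). Both, with Cd4 and Tnfrsf18, were lowest in replicate 2. Foxp3 (90.8, 96.4 and 83.0 TPM), Il2ra (369, 382 and 306 TPM) and Ikzf2 (374, 393 and 345 TPM) were highest in replicate 2. Ctla4 was lowest in replicate 3. By CPM, 5 of the 12 detected ligands were lowest in replicate 2, namely Ifng, Il10, Il18, Lif and Il4, against 35.3% of all genes tested between libraries. The B cell list, with 5 of 8 markers detected and Cd79b highest at 38.7 TPM, summed to 63.3 to 72.8 TPM. Of 5 plasma cell markers 2 were detected and Tnfrsf17 had no count. Their sum was 67.4, 52.9 and 41.8 TPM, highest in replicate 1 and lowest in replicate 3, as were Csf1 and Fgl2. Nearly all of it was Xbp1, at 64.8, 46.8 and 38.4 TPM. Sdc1, at 0.49, 0.40 and 0.15 TPM, had the same order. Jchain (1.69, 4.56 and 2.46 TPM) and Igha (0.46, 1.17 and 0.87 TPM) were lowest in replicate 1 and highest in replicate 2. Of 6 NK cell markers 2 were detected, with sums of 3.65 to 4.59 TPM. None of 6 mast cell and basophil markers was detected, with sums of 1.51 to 2.10 TPM and Mcpt8 without a count. Of 8 markers listed as stromal and endothelial 1 was detected, the epithelial gene Epcam at 3.45 ± 0.922 TPM, and Pdgfra and Pdgfrb had no counts. Erythroid genes summed to 909, 1270 and 1146 TPM. Of 2 CD8 T cell markers, Cd8b1 was at 20.6 TPM, and Cd8a, at 0.79, 2.56 and 1.03 TPM, was not detected. The part of these cells in the cytokine levels was not tested.

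For most detected ligands, RNA for the listed receptor subunits was also present, though which cells held it was not tested. Of the 12 detected ligands, 9 had every listed receptor subunit detected, a count that depends on which subunits were listed. Of the 19 distinct subunits 16 were detected, against 47.4% of protein-coding genes. Il2rg, the common gamma chain, at 1427 ± 42.8 TPM, and Il2rb, at 918 ± 89.0 TPM, were the highest of these subunits. With Il2ra, at 352 ± 41.0 TPM, they were far above Il2 itself at 1.58 ± 0.379 TPM. Cd4, the receptor of interleukin-16, was at 264 ± 20.6 TPM. Il27ra and Il6st, the chains that bind interleukin-27, were at 316 ± 11.3 and 197 ± 18.6 TPM. Ebi3 was counted through these chains alone, although its partner Il27 had 1.06, 0 and 0 counts. For Il10, the chains Il10ra and Il10rb were at 72.9 ± 2.67 and 127 ± 5.55 TPM. For Ifng, the binding chain Ifngr1 was at 413 ± 39.0 TPM and the signalling chain Ifngr2 at 13.3 ± 2.41 TPM, about the level of Ifng.

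The exceptions were on the interleukin-6 family side and for Fgl2. Osmr, the specific chain for oncostatin M, had 0.13, 0.03 and 0.02 TPM, and Lifr, that for leukaemia inhibitory factor, had 0.05, 0.17 and 0.01 TPM. Both were far under 1 TPM in every library although the shared chain Il6st was abundant. Fcgr2b, an inhibitory Fc receptor that binds Fgl2, had 0.59, 1.12 and 1.27 TPM, on either side of the detection level. Csf1r, the receptor of Csf1 and itself among the myeloid markers, was at 9.14, 5.48 and 9.66 TPM, lowest in replicate 2. Il1r2, a decoy receptor for interleukin-1, was at 73.9 ± 17.8 TPM, and the signalling receptor Il1r1 at 0.807 ± 0.360 TPM. Over the whole list of 42 receptor subunits, 28 were detected, against 47.4% of protein-coding genes, and Il13ra2 had no count.

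**Figure D4:**
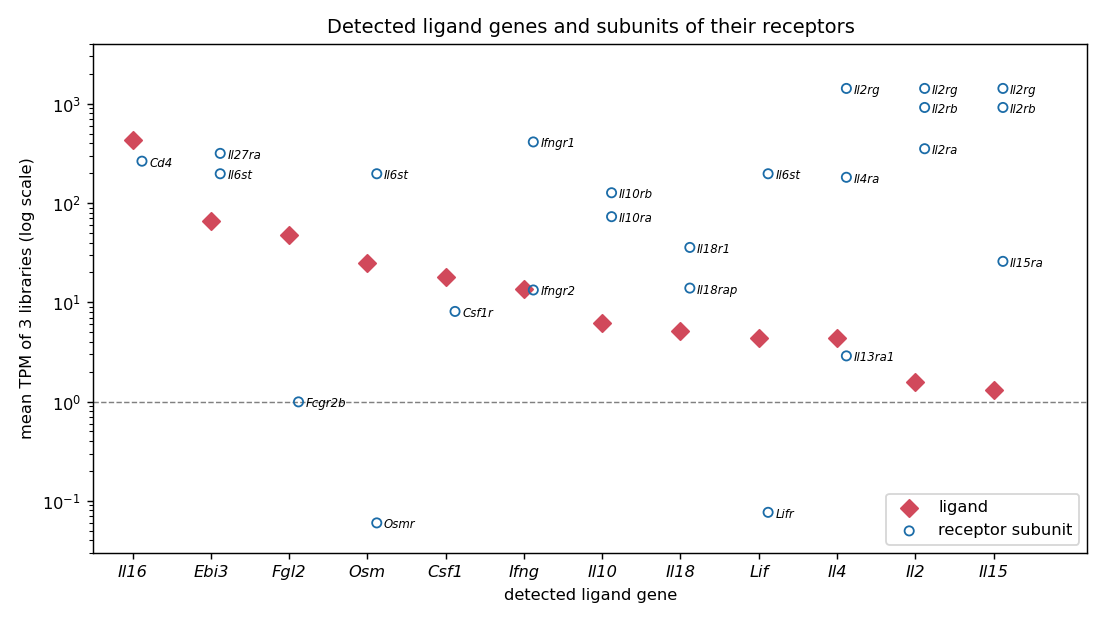
Mean TPM over 3 libraries, on a log axis, of the 12 detected ligand genes (diamonds) and of the receptor subunits listed for each (circles), with 1 TPM as a dashed line. The circles of Osmr and Lifr lie at 0.0600 and 0.0767 TPM and that of Fcgr2b at 0.993 TPM, and the other 16 subunits lie above the line.

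Among secreted ligands and antagonists outside the 31 genes, a few were abundant and many were without counts. Of 30 listed, 26 were matched by symbol, 6 were detected and 11 had no count. Mif, a broadly expressed inflammatory mediator, was at 597 ± 52.9 TPM, above Il16, and Flt3l, a growth factor of dendritic cells, at 181 ± 15.5 TPM. Il21, the helper cytokine of B cell responses, was at 34.44, 10.98 and 34.3 TPM. It was above Ifng in every library and, like Ifng, lowest in replicate 2. Clcf1, of the interleukin-6 family, was at 19.0 ± 1.17 TPM. The antagonists Il18bp, which binds interleukin-18, and Il1rn, which blocks the interleukin-1 receptor, were at 6.80 ± 0.187 and 2.98 ± 0.639 TPM.

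The deposit holds a second gene table per library, with fewer counts, and the levels of some cytokine genes differ between the tables. The second table's totals were 30.3, 29.3 and 31.1% of the first. Its counts were 47.1% of those of the first table for the median gene (quartiles 28.9 and 64.4%) among 11838 genes. Lif (14.9%) and Il16 (21.8%) were low by this measure: 10.9% and 17.0% of genes were lower. Il18 (80.5%) and Il4 (69.0%) were high, with 92.4% and 80.7% of genes lower. On the CPM scale Lif was at 4.94 in the second table against 9.96 in the first, Il18 at 7.04 against 2.65, Il4 at 3.29 against 1.45, and Ebi3 at 90.4 against 46.6. Il10 was at 8.57 against 5.04 and Il15 at 1.05 against 0.593. Il12a had 0, 2 and 2 counts there, against 553, 586 and 510 for Ebi3, so the gap between these genes is smaller in the second table. Il16 was the highest of the 31 genes in both, at 623 CPM in the second and 864 CPM in the first, and 5 of the 12 detected genes took another rank. Mean CPM moved by more than 1 SD between the tables for all detected genes but Il2. No source used here says how the second table was counted, so the levels of these genes are uncertain to this extent.

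**Figure D5:**
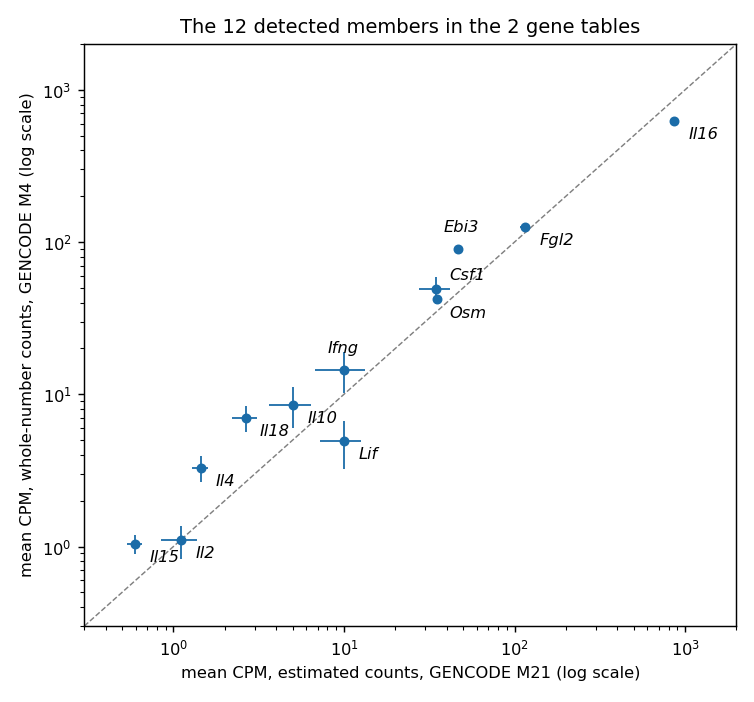
Mean CPM of the 12 detected genes in the second, whole-number gene table (vertical) against the estimated counts of the first (horizontal), both on log axes, with SD over 3 libraries and the line of equal values. Il16 and Lif lie below the line, and Ebi3, Il18 and Il4 lie above it.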

How the data were processed

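Polyadenylated RNA was measured in 3 technical replicate libraries of 1 biosample, with 20783676, 21206219 and 18496690 gene counts. The authors deposited, per library, tables on mm10 with GENCODE M21: estimated counts (expected counts), in which reads that fit several genes are divided, and TPM and FPKM values that scale these to transcript length. A second deposited table gives whole counts, for 22457 GENCODE M4 genes. No source used here names the aligner, quantifier, strand setting or duplicate handling, so overlapping genes may share reads. Of the 31 genes, 24 had reads, and 6 of these had fractional counts (Il16, Ebi3, Ifng, Il2, Il1a and Il27, tolerance 0.005).

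A gene was called detected at 1 TPM or more in every library. CPM used gene totals, and rows that name no gene (0.189 to 0.271% of counts) were left out. Libraries were compared by a Pearson chi-square test per gene (2 degrees of freedom) on rounded estimated counts against library totals, for a summed count of 30 or more, adjusted by Benjamini-Hochberg over all genes; it was tested on simulated data. The fold ratios between subunits used counts summed over the 3 libraries, divided by mean effective length. The log2 ratios used log2(TPM + 0.1) in each library. A count of 0 was given the limit of 3 counts. Transcript shares are shares of a gene's deposited TPM. The genes named with values per library are the detected ones, those that differed and those with a mean of 0.1 TPM or more. The genes and lists were chosen with earlier results of these data known. Promoter windows are from RefSeq (GRCm38.p6). Alternatives were other thresholds, filters, scalings (edgeR 4.0.16, DESeq2 1.42.0), a deviance statistic, pseudocounts, FPKM, transcript sums, the second table and leaving out each library. Scripts ran in Python 3.11.15 with scipy 1.17.1, pandas 2.3.3, numpy 2.4.6 and matplotlib 3.10.9, and in R 4.3.3.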

Additional observations from a re-analysis of the deposited data

How the results depend on the processing

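The count of 12 detected genes ranged from 10 (2 TPM, or FPKM) to 13 (10 or more counts in every library) and was 12 without each library. The count of cytokine genes that differed between libraries, 6 of 13, was the same under TMM, DESeq2 size factors, the deviance statistic and transcript sums. Over all genes 6575 of 14641 differed, and 6549 to 6592 under these 4 settings. With a filter of 10 it was 7 of 16, where Csf2 was added (chi-square adjusted p = 0.0365), against 6799 of 17856 genes (38.1%). With a filter of 100 it was 6 of 9, against 6208 of 11972 genes. In the second table, which has fewer counts, it was 4 of 10, against 2520 of 10885 genes. Without replicate 1 it was 4 of 12, against 4157 of 13707 genes. Without replicate 2 it was 5 of 11, against 3782 of 13675, and without replicate 3 it was 3 of 12, against 4701 of 13828. The median of 0.213 TPM became 1.00 over the 24 genes with any count, and was 0.160 to 0.275 with 1 library left out. The log2 ratio of Ebi3 to Il12a, 8.94 ± 0.73 with a pseudocount of 0.1 TPM, was 11.38 with 0.01 and 5.99 with 1, and 8.70 to 9.36 with 1 library left out. That of Ebi3 to Il27, 9.08 ± 0.53, was 11.62 and 6.02, and 8.91 to 9.39. The pseudocount moves both by construction, since each partner has at most 2 counts. Mean TPM of the 12 detected genes moved by less than 1 SD under rescaled FPKM, transcript sums and each left-out library. This was fixed in advance and is no check. Rescaled FPKM and summed transcript TPM restate gene TPM, and leaving out 1 of 3 libraries cannot move a mean by 1 SD. Mean CPM moved by more than 1 SD in the second table for 11 of 12. With fewer than 10 summed counts a gene entered no test between libraries.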
